A study of Mus musculus with 2 samples.

Results

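Cxcl5-Csf3-Il11 fibroblasts are choroidal fibroblasts in which the summed UMIs (unique molecular identifiers, 1 per captured transcript) of 3 secreted signals, Cxcl5, Csf3 and Il11, outrank those of 6 other fibroblast gene sets. They numbered 1327 of 10664 fibroblasts and of 21898 cells. The cells were chosen by the measured UMIs of those genes. The animals were wild-type ICR mice aged 8 weeks, and the tissue was choroid together with its overlying pigment epithelium (RPE), with no treatment named in the labels. Each of 2 libraries, WT1 and WT2, pooled 1 male and 1 female mouse, so a library is the unit of replication and no value belongs to 1 animal. Tissue was digested in collagenase A (1 mg/ml, 2 h) and then in 0.25% trypsin (30 min), filtered at 40 µm, and cells were captured in droplets for sequencing of transcript 3′ ends.

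A barcode counted as a cell if it had 1000 UMIs and 500 genes or more, with mitochondrial UMIs up to 20%. A fibroblast had at least 10 UMIs of Col1a1, Col1a2, Col3a1, Dcn and Lum together and at most 2 of Cdh5, Ptprc, Sox10, Higd1b and Myh11, which mark endothelial, immune, Schwann or melanocytic, and mural cells. Each fibroblast was put in the subset with the strictly largest sum of at least 3 UMIs, and the 6 alternatives were named by their genes: Tfpi2-Tcf21-Alpl, Ltbp2-Cyp26a1-Comp, Crabp2-Ephb1-Nrk, Angptl7-Cilp2-Cnmd, Pi16-Dpt-Clec3b and Kera-Thbs4. Fibroblasts that reached 3 UMIs in no set, or were tied, are called fibroblasts of no subset. The levels of Cxcl5, Csf3 and Il11 therefore chose the cells, and are given below as a description with no test.

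Cxcl5 is a CXC chemokine that draws neutrophils through the receptor Cxcr2. Csf3 encodes granulocyte colony-stimulating factor, which drives neutrophil production and survival through Csf3r. Il11 is a cytokine of the interleukin-6 family that signals through Il11ra1 and the shared subunit Il6st. In fibroblasts of many tissues these genes, with Cxcl1, Il6 and the prostaglandin enzymes Ptgs2 and Ptges, are induced by interleukin-1, tumour necrosis factor and bacterial products, in large part through the transcription factor NF-kappaB.

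The genes lie apart in the genome (GRCm38, GENCODE annotation). Cxcl5 is at chr5:90759360-90761624 on the plus strand, in a cluster of 7 CXC chemokine genes that spans 147 kb and also holds Cxcl3 (chr5:90786103-90789600), Cxcl1 (chr5:90891241-90893115) and Cxcl2 (chr5:90903871-90905938). Csf3 is at chr11:98701263-98703629 on the plus strand and Il11 at chr7:4772373-4782859 on the minus strand. The promoter stretches below are of genes that the comparisons below turn on and that hold a searched motif. Each covers bases -120 to -31 from the transcription start listed by RefSeq (GRCm38.p6), 5′ to 3′ on the gene's strand, with the match in capitals. The motifs searched on both strands were the NF-kappaB consensus, the AP-1 motif TGANTCA and the C/EBP motif TTGCNNAA.
Cxcl1, chr5:90891125-90891214, plus strand: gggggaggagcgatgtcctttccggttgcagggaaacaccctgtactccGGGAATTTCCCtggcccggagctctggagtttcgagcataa
Cxcl2, chr5:90903779-90903868, plus strand: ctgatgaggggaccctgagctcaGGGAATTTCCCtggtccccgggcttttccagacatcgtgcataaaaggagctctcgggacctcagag
Cxcl3, chr5:90785981-90786070, plus strand: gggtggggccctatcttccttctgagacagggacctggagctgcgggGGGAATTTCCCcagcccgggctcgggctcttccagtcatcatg
Il6, chr5:30012994-30013083, plus strand: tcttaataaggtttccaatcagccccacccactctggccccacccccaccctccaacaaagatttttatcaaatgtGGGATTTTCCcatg
Tnip1, chr11:54962971-54963060, minus strand: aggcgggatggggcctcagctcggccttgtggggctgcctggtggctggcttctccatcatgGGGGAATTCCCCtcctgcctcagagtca
Ptgs2, chr1:150099911-150100000, plus strand: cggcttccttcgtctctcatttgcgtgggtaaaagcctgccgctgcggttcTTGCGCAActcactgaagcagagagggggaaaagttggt
Il11, chr7:4778172-4778261, minus strand, at the downstream of its listed starts: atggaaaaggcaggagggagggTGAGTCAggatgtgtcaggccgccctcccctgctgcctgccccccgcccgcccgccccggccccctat

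The NF-kappaB consensus matched in Cxcl1, Cxcl2, Cxcl3, Il6 and Tnip1, starting at -71, -97, -73, -44 and -58 in that order. Cxcl1, Cxcl2 and Cxcl3 carried the same 11 letters, a match on both strands that overlap by all but 1 base. Ptgs2 carried TTGCNNAA at -69 and Il11 carried TGANTCA at -98. Among 32851 promoters in the table, 1.37% held the NF-kappaB consensus in this window, 2.74% TGANTCA and 3.31% TTGCNNAA. Lif, Ptges, the 3 listed starts of Il1rn and the other listed start of Il11 were searched too and held none of these letters in the window. Of 16 genes looked up, 10 were found in the table. Cxcl5, Csf3, Ccl2, Mmp19, C4b and A2m were not. These matches describe letters and were not tied to binding in these cells.

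Cxcl5-Csf3-Il11 fibroblasts made up 543 of 4177 fibroblasts in WT1 (13.0%, exact 95% interval 12.0% to 14.1%) and 784 of 6487 in WT2 (12.1%, 11.3% to 12.9%), a mean of 12.5% ± 0.646 (SD, n = 2 libraries). Of all cells they were 6.39% and 5.85%. The intervals cover counting error only. The libraries held 91741168 and 149570817 UMIs and 8497 and 13401 cells, of which 2.52% and 5.27% were called doublets and kept. Barcodes with at most 100 UMIs, taken as free RNA, held 4.90% and 4.11% of all UMIs, and 31 cell barcodes occurred in both libraries.

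The median of the members was 7821 and 8136.5 UMIs and 2394 and 2661 genes per cell, with 2.76% and 3.0% mitochondrial UMIs and 2.03% and 5.99% called doublets. In WT2 that doublet share was the highest of the fibroblast groups, against 2.19% to 5.30% in the others, and in WT1 it lay inside their 1.17% to 2.91%. Thinned to 2000 UMIs they showed a median of 1000 and 1091 genes, inside the range of 930 to 1127.5 in the other fibroblast groups. Fibroblasts of no subset were shallower, at 5877 and 6002 UMIs. Markers of other cell classes were low: the 5 macrophage markers summed to 140 and 231 raw CPM (counts per 1000000 UMIs of the group, with no further scaling), against 72.7 to 288 in the other fibroblast groups and 12206 and 11921 in macrophages. Endothelial, mural, melanocyte and Schwann marker sums also lay inside the range of the other fibroblast groups, and all 5 markers of S100a8-S100a9 myeloid cells were at 0 in WT1, with 4 of 5 at 0 in WT2. The 5 RPE markers had the largest sum of any class in the members, at 1031 and 1882 raw CPM. Other fibroblast groups held 31.4 to 1988 in WT1 and 401 to 11273 in WT2, and RPE cells 71128.2 and 72236.5. The gate itself limits Higd1b and Myh11 among the mural markers and Sox10 among the Schwann markers.

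The 3 cytokine sums ranged widely. The median was 15 UMIs in WT1 and 14 in WT2, with maxima of 209 and 200, and 66.3% and 68.75% of the cells had 10 or more. Just inside the threshold, 32 and 42 cells had a sum of exactly 3, and just outside it 230 and 349 fibroblasts had a sum of 2. Of all fibroblasts, 58.8% and 58.3% had none of the 3 transcripts. A sum of 3 or more was reached by 1007 and 1533 fibroblasts, but 46.1% and 48.9% of these were not members, mainly because another subset's sum was larger, in 441 and 687 cells.

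Csf3 was the most abundant of the 3, with 1267 and 1212 raw CPM in the members in WT1 and WT2. The other subsets held 20.8 to 129 raw CPM, with Ltbp2-Cyp26a1-Comp fibroblasts highest at 129 in both libraries. Cxcl5 stood at 638 and 644 raw CPM in the members, against 7.96 to 102 in the other subsets. Il11 stood at 521 and 393 raw CPM, against 18.7 to 111, with Tfpi2-Tcf21-Alpl fibroblasts highest at 111 and 79.0. These gaps follow from the rule. Free RNA held 135 and 112 raw CPM of Csf3, 52.0 and 40.7 of Cxcl5 and 38.9 and 34.5 of Il11, within the ranges of the other subsets or near them.

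**Figure D1:**
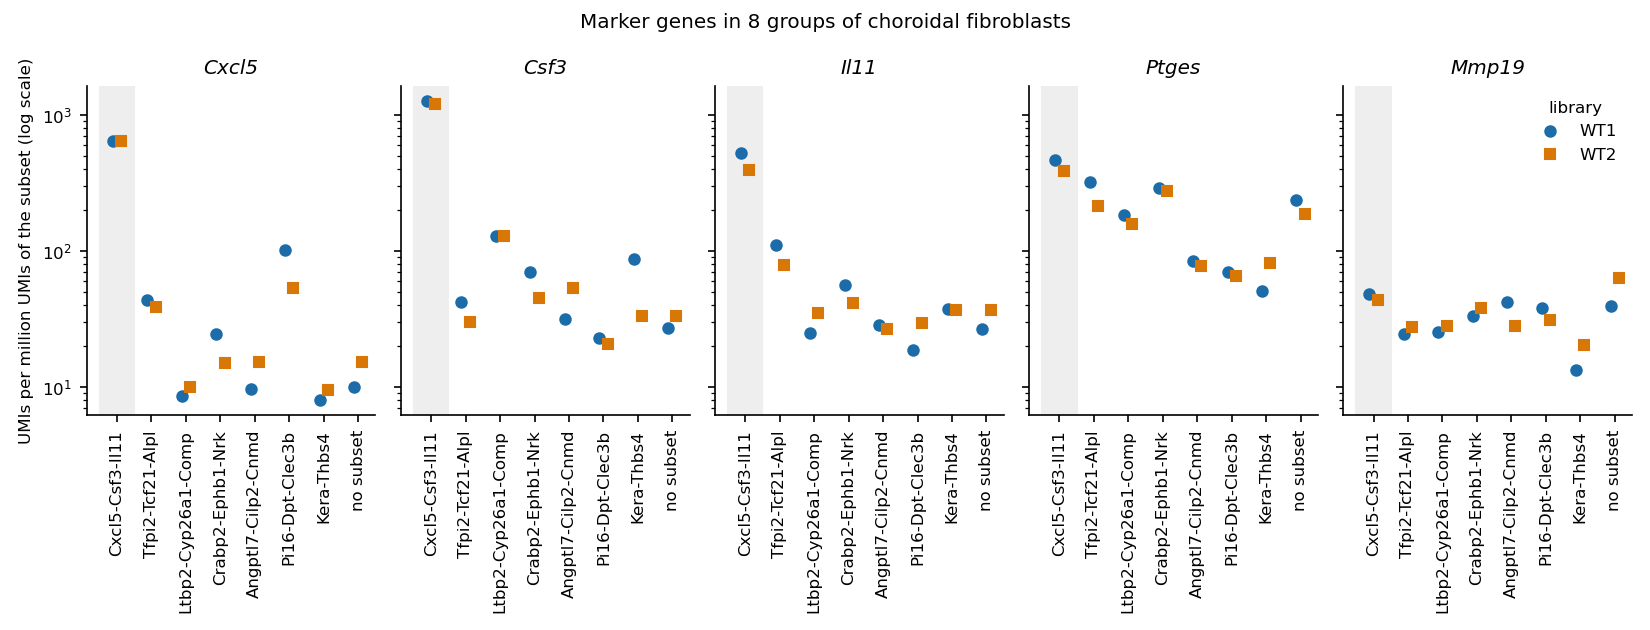
Raw CPM (log scale) of 5 marker genes in Cxcl5-Csf3-Il11 fibroblasts (shaded) and 7 other groups of fibroblasts, with 1 point per library. The 3 genes of the rule are far above all other groups in the shaded column, Ptges is highest there at 463 and 385 on this raw scale, and Mmp19 overlaps the other groups.

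The remaining marker genes were not part of the rule. Ptges, the terminal enzyme of prostaglandin E2 synthesis, stood at 463 and 385 raw CPM in the members, above all sums of the other fibroblast groups, whose highest was 322. On the TMM-normalised scale it stood at 510 and 357 CPM, and the highest sum of the other subsets, 357, was of WT1. Mmp19, a matrix metalloprotease, stood at 48.6 and 43.5 raw CPM, against 13.4 to 42.2 in the other subsets but 39.7 and 63.1 in fibroblasts of no subset. On the normalised scale it stood at 53.5 and 40.3 CPM in the members, and the highest sum of the other subsets, 47.3, was of WT1. Both genes had been proposed as markers from these same cells, so no test of either is given. The fibroblast label held by its gate, and Mmp19 did not set the cells apart from fibroblasts of no subset.

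Most members carried 1 of the 3 cytokines and not all of them. Exactly 1 transcript species was detected in 63.7% and 60.2% of the cells, 2 in 31.3% and 34.3%, and all 3 in 4.97% and 5.48%, which is 27 and 43 cells. Csf3 alone was seen in 26.0% and 29.2% of members, Il11 alone in 23.0% and 16.5%, and Cxcl5 alone in 14.7% and 14.5%. By the most abundant of the 3 genes, 218 and 378 cells were led by Csf3, 176 and 194 by Il11, 140 and 207 by Cxcl5, and 9 and 5 were tied. A few cells carried much of each message: the 10% of members with the most UMIs of a gene held 65.2% and 64.1% of the members' Cxcl5 UMIs, 51.3% and 49.2% of Csf3 and 51.5% and 56.4% of Il11.

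The overlap of the 3 transcripts was counted over all fibroblasts, members or not, each thinned to 2000 UMIs. In each pair, the second transcript was only somewhat more frequent in cells with the first than in cells without it. Csf3 was found in 16.5% and 17.2% of cells with Cxcl5, against 10.1% and 11.4% of cells without it. Il11 was found in 17.9% and 17.4% of cells with Cxcl5, against 10.7% and 9.15% of cells without it. Il11 was found in 15.8% and 13.2% of cells with Csf3, against 10.6% and 9.19% of cells without it. Cxcl1, a gene of the same chemokine cluster with others lying between it and Cxcl5, was far more often the companion of Cxcl5. It was found in 76.9% and 74.6% of cells with Cxcl5, against 34.1% and 30.7% of cells without it. For Csf3 the same shares were 47.9% and 42.0% against 35.6% and 32.4%, and for Il11 52.6% and 47.5% against 35.0% and 32.0%. Unthinned, Cxcl1 was seen in 84.2% and 84.8% of cells with Cxcl5, against 47.4% and 46.6% of the rest. These shares over cells are a description.

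Members led by different cytokines differed in the rest of their output, given here in raw CPM. Cxcl1 stood at 5477 and 3744 in Cxcl5-led cells, at 1379 and 1068 in Csf3-led cells and at 2230 and 1119 in Il11-led cells. Cxcl2 showed the same order at the top, with 3890 and 1992, then 1428 and 953, then 1532 and 760. Il6 was lowest in Csf3-led cells, at 173 and 265, against 674 and 558 in Cxcl5-led and 423 and 502 in Il11-led cells. Lif, another member of the interleukin-6 family, was nearly level: 393 and 337 in Cxcl5-led, 370 and 337 in Csf3-led, and 385 and 322 in Il11-led cells. Ptgs2, the inducible cyclooxygenase, was also close, at 1762 and 2280, 2052 and 2583, and 1918 and 2028. Ccl11, an eosinophil chemokine, was lowest in Csf3-led cells, at 405 and 291, against 1241 and 922 and 1649 and 796. Ccn2, a matricellular gene chosen after its values were seen, was highest in Csf3-led cells, at 2540 and 2319, against 999 and 994 in Cxcl5-led and 873 and 1368 in Il11-led cells. Csf3-led cells were thus low in Il6 and Ccl11 and high in Ccn2 in both libraries. No test was run between these groups.

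**Figure D2:**
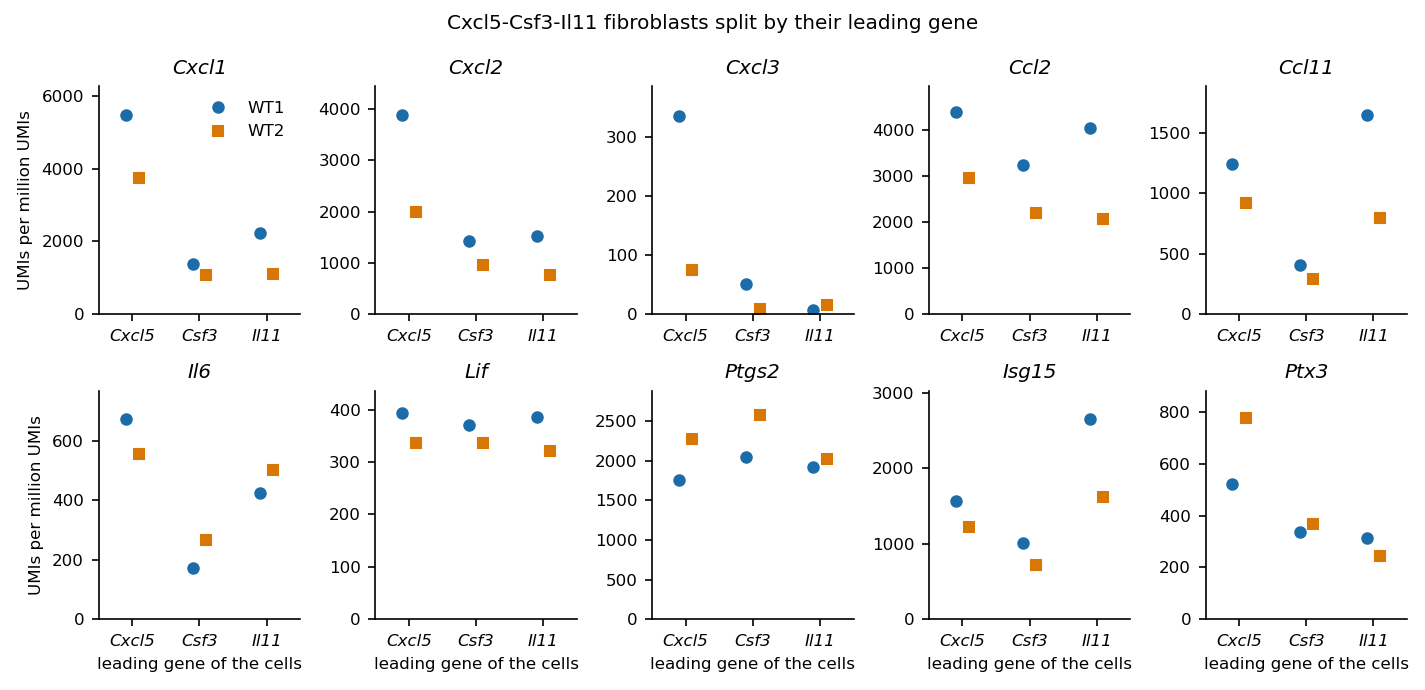
Raw CPM (linear axes from 0) of 10 genes in Cxcl5-Csf3-Il11 fibroblasts led by Cxcl5, Csf3 or Il11, with 1 point per library. Cxcl1 and Cxcl2 are highest in Cxcl5-led cells in both libraries, Il6 and Ccl11 are lowest in Csf3-led cells, and Lif is nearly level.

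The members were spread over other kinds of fibroblast. Ranked without Cxcl5, Csf3 and Il11, 31.1% and 38.0% of the members had Tfpi2-Tcf21-Alpl as their next subset, against 27.8% and 30.8% of other fibroblasts in that subset. No other subset was reached by 38.5% and 30.0% of members, against 23.5% and 20.7% of other fibroblasts, where ties are counted in. Ltbp2-Cyp26a1-Comp was next in 12.2% and 15.7%, against 20.9% and 26.8%, and Crabp2-Ephb1-Nrk in 9.39% and 8.42%, against 8.70% and 7.79%. The rule keeps fibroblasts with a larger sum of another subset out of the members, which by itself shifts these shares. How much of the differences follows from the rule was not tested. The leading gene went with the next subset: Ltbp2-Cyp26a1-Comp was next in 22.5% and 26.5% of Csf3-led members, but in 7.14% and 7.25% of Cxcl5-led and 3.98% and 4.12% of Il11-led members.

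In 30 principal components computed without any gate gene, 23.9% and 25.02% of the members' 15 nearest neighbours were members, a ratio of 1.84 and 2.07 to their share of fibroblasts. For Tfpi2-Tcf21-Alpl fibroblasts the ratio was 2.23 and 2.16, for the other subsets it ran from 2.92 to 14.3, and for fibroblasts of no subset it was 1.66 and 1.82. Tfpi2-Tcf21-Alpl fibroblasts were 27.1% and 29.1% of the members' neighbours, close to their 24.2% and 27.1% of all fibroblasts, and fibroblasts of no subset were 21.1% and 18.2%. Counting only members led by the same gene, the ratio was 4.12 and 4.33 for Cxcl5-led, 2.55 and 2.54 for Csf3-led and 2.54 and 2.48 for Il11-led cells. The ratio grows as a group's share shrinks. The share of own neighbours itself was 23.9% and 22.8% in Crabp2-Ephb1-Nrk fibroblasts, like that of the members, and 42.8% to 68.9% in the other named subsets.

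**Figure D3:**
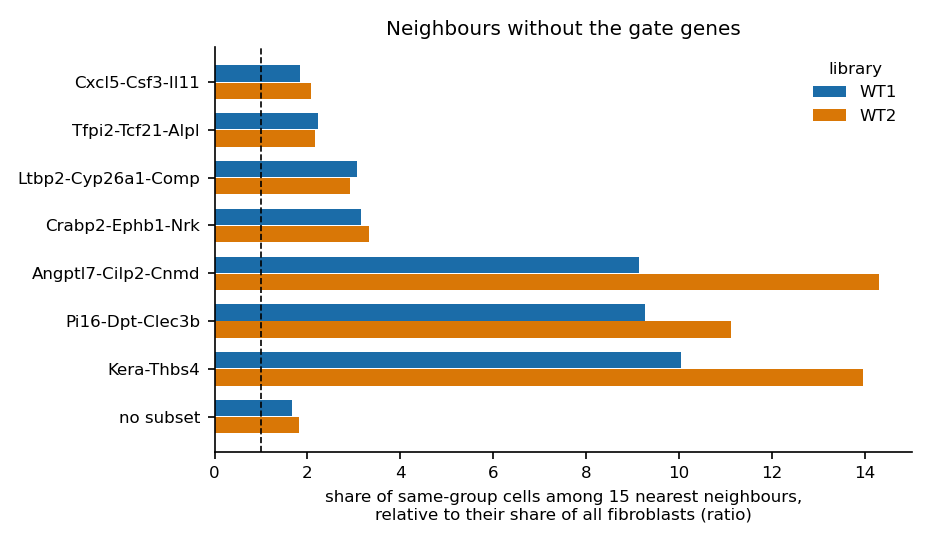
Share of cells of the same group among the 15 nearest neighbours, divided by that group's share of all fibroblasts, for Cxcl5-Csf3-Il11 fibroblasts and 7 other groups, with 1 bar per library and a dashed line at 1. The members' ratios of 1.84 and 2.07 are far below those of the Kera-Thbs4, Pi16-Dpt-Clec3b and Angptl7-Cilp2-Cnmd groups.

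What else the members express was asked in 3 ways, by edgeR on UMI sums per library and group with the library as a block. Calls needed an adjusted p (Benjamini-Hochberg over all genes tested) under 0.05 together with a log2 fold change of 1 or more in either direction. The 32 genes of the gates and markers were left out of every count. The subsets had been drawn from clusters of these same cells and each library pools 2 mice. The p-values measure only how unevenly differences between groups held across the 2 pools. They are not independent evidence that the subset exists. Levels below are CPM of these sums after TMM normalisation, in WT1 and then WT2. The 3 comparisons share the members' sums, so a gene called in several of them does not gain independent support from each. Their values are set side by side as a description.

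Against the mean of the other 6 subsets, 571 of 12791 genes were higher in the members (4.46% of those tested) and 133 were lower (1.04%), with 4521 at an unadjusted p under 0.05. Against fibroblasts of no subset, 20 were higher (0.156%) and 22 lower (0.172%), with 1849 at an unadjusted p under 0.05. Members were then split by their next subset and each split was set against the cells of that subset, which gave 5 pairs in each library. The 5 pairs of a library in this comparison come from the same pooled mice. They are not independent replicates, so counts of pairs are a description. In that comparison, added after the data were seen, 20 of 11618 genes were higher (0.172%) and 95 lower (0.818%), with 3049 at an unadjusted p under 0.05. Of these, 10 higher and 7 lower genes had a mean of at least 20 CPM. Without the library block, 63 genes were lower than the mean of the other subsets, and against fibroblasts of no subset 1 gene was higher and 0 lower. With each cell thinned to 2000 UMIs, 564 were higher and 203 lower than the mean of the other subsets.

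Cxcl1 and Cxcl2, which draw neutrophils through Cxcr2 as Cxcl5 does, were higher in the members. Cxcl1 had 2821 and 1568 CPM in the members, against 1097 and 556 in fibroblasts of no subset and 108 to 1735 in the other subsets of WT1 and 61.7 to 1049 in those of WT2, so the members were highest within each library. Its log2 fold change was 2.60 ± 0.108 (SE) against the mean of the subsets, 1.43 ± 0.171 against fibroblasts of no subset and 1.64 ± 0.091 against cells of the same next subset, with edgeR adjusted p of 4.5e-08, 0.00427 and 1.5e-06. It was higher in 10 of 10 pairs, by 2.07 to 6.24 times. Cxcl2, its paralog, had 2211 and 1061 CPM in the members, against 548 and 495 in fibroblasts of no subset. Against cells of the same next subset the log2 fold change of Cxcl2 was 2.20 ± 0.204 (edgeR adjusted p = 0.000177), higher in 10 of 10 pairs, while that against fibroblasts of no subset did not pass. Cxcl3 had 114 and 23.7 CPM in the members, against 22.6 and 13.4 in fibroblasts of no subset, and was called only against the mean of the subsets. It was detected in 5.89% and 3.19% of members, and in each library 1 cell held 13.6% and 14.1% of their Cxcl3 UMIs. Of the 7 genes of this list 4 could be tested, and 3, 1 and 2 were higher in the 3 comparisons, with none lower. Reads of such close paralogs may be shared between them. Macrophages held Cxcl1 at 2945 and 2215 raw CPM, and the macrophage marker sum of the members, given above, lay inside the range of the other fibroblast groups.

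Among other chemokines, Ccl2, which draws monocytes through Ccr2, had 4067 and 2167 CPM in the members and 1920 and 924 in fibroblasts of no subset. It passed in all 3 comparisons, with log2 fold changes of 2.65, 1.15 and 1.55, and was higher in 10 of 10 pairs. Of 17 tested genes of this list, 8 were higher than the mean of the subsets, but only Ccl2 was called in the other comparisons. Ccl11 had 1033 and 502 CPM in the members, against 896 and 376 in fibroblasts of no subset and up to 2453 in the other subsets. Cxcl10, an interferon-induced T cell chemokine, had 754 and 989 CPM in the members and 731 and 758 in fibroblasts of no subset. Their log2 fold changes were 3.09 and 2.48 against the mean of the subsets, and 0.11 and 0.17 against cells of the same next subset.

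Lif and Il6, ligands of the interleukin-6 family, rose against the mean of the subsets. Lif had 416 and 310 CPM in the members, above all other fibroblast sums, with 141 and 129 in fibroblasts of no subset and 18.9 to 225 in the other subsets. It passed in all 3 comparisons, with log2 fold changes of 2.20, 1.40 and 1.53, and was 1.80 to 6.03 times higher in the 10 pairs. Il6 had 394 and 360 CPM in the members, against 356 and 275 in fibroblasts of no subset and 7.98 to 366 in the other subsets. Its log2 fold change was 2.46 against the mean of the subsets and 1.13 ± 0.167 against cells of the same next subset (edgeR adjusted p = 0.00288), but 0.26 against fibroblasts of no subset, where it did not pass. Of 11 tested genes 3 were higher than the mean of the subsets, Il6 and Lif among them, none was lower, and the median log2 fold change was 0.70, against -0.01 over all genes. Mural cells held more Il6 than the members, with 357 and 388 raw CPM in the members and 699 and 675 in mural cells, while Lif stood at 378 and 335 raw CPM in the members and 225 and 275 in mural cells. The mural marker sum of the members was 789 and 1166 raw CPM, against 134 to 1281 and 146 to 1845 in the other fibroblast groups. The gate limits its markers Higd1b and Myh11 in every fibroblast, so this sum cannot show how much mural RNA is present. The part of mural RNA in Il6 was not tested. The receptor subunits Il6st, Lifr and Osmr had log2 fold changes of 0.17, 0.96 and 0.97 and were not called.

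Prostaglandin synthesis showed Ptgs2 beside Ptges. Ptgs2 had 2154 and 2209 CPM in the members, above all other sums, with 832 and 1095 in fibroblasts of no subset and 167 to 1595 in the other subsets. It passed in all 3 comparisons, with log2 fold changes of 1.60, 1.19 and 1.08, and was higher in 10 of 10 pairs. Without the pairs of the Pi16-Dpt-Clec3b subset, which rest on 21 and 26 members, its value was 0.93 and fell short of the threshold of 1. Ptgs1, the constitutive cyclooxygenase, had 30.6 and 24.6 CPM in the members and 11.4 and 13.1 in fibroblasts of no subset, where it was called with a log2 fold change of 1.14. Hpgd, which degrades prostaglandins, had 12.3 and 18.9 CPM, below all other sums, and was lower than the mean of the subsets, with a log2 fold change of -1.29. Of 17 tested genes 3 were higher than the mean of the subsets (Ptgs2, Ptgir and Ptger4) and 1, Hpgd, was lower. Against cells of the same next subset 2 were higher, Ptgs2 and the prostaglandin exporter Abcc4, the last at 3.24 and 5.18 CPM in the members.

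The pairs show how evenly these differences held across kinds of fibroblast, in normalised CPM of the matched sums. Members next to Tfpi2-Tcf21-Alpl had 3941 and 2682 CPM of Cxcl1, against 1735 and 901 in that subset. Members next to Ltbp2-Cyp26a1-Comp had 1449 and 622 CPM, against 232 and 140, and those next to Crabp2-Ephb1-Nrk had 1399 and 945, against 676 and 289. Members next to Pi16-Dpt-Clec3b had 5279 and 2959 CPM, against 1628 and 1050, and those with no next subset had 3427 and 1282, against 1078 and 566. The level of Cxcl1 in the members thus followed that of the subset they were next to, with the lowest levels on both sides in Ltbp2-Cyp26a1-Comp and Crabp2-Ephb1-Nrk pairs. Lif ranged less among the members, which had 520 and 397 CPM next to Tfpi2-Tcf21-Alpl, 567 and 254 next to Ltbp2-Cyp26a1-Comp and 231 and 165 next to Crabp2-Ephb1-Nrk, against 225 and 159, 193 and 101, and 128 and 80.4 in those subsets. Il6 was 1.36 and 1.62 times higher in the members of the Tfpi2-Tcf21-Alpl pairs and 3.78 and 3.48 times in the Ltbp2-Cyp26a1-Comp pairs. Ptgs2 was 1.5 to 2.59 times higher in 9 pairs and 4.77 times in the WT1 Pi16-Dpt-Clec3b pair.

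The same direction was seen per cell at equal depth. After thinning to 2000 UMIs, Cxcl1 was detected in 62.8% and 61.1% of members, against 32.8% and 30.0% of other fibroblasts, and Cxcl2 in 32.2% and 23.6%, against 10.5% and 9.69%. Ccl2 was detected in 54.2% and 54.5% of members, against 28.6% and 27.2% of other fibroblasts, and Lif in 35.1% and 29.6%, against 16.6% and 13.6%. Ptgs2 was already common in other fibroblasts, at 74.5% and 81.8% of members against 49.9% and 58.8%. The levels of companion genes did not all follow the cytokine sum, whose bins are made from the values of the rule. Ptgs2 stood at 1350, 1522 and 2468 raw CPM with sums of 3 to 9, 10 to 19 and 20 or more in WT1, and at 1699, 2259 and 2957 in WT2. Other fibroblasts with sums of 0, of 1 or 2 and of 3 or more had 769, 933 and 1160 raw CPM of Ptgs2 in WT1 and 1048, 1336 and 1611 in WT2. Cxcl1 stood at 2432, 2197 and 2798 raw CPM over the members' bins in WT1 and at 1059, 1508 and 2272 in WT2. Il6 stood at 508, 279 and 319 in WT1 and at 350, 402 and 405 in WT2, and in other fibroblasts at 176, 131 and 148 and at 174, 174 and 135. Ptgs2 was thus higher with the sum in both libraries, and Il6 was not.

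**Figure D4:**
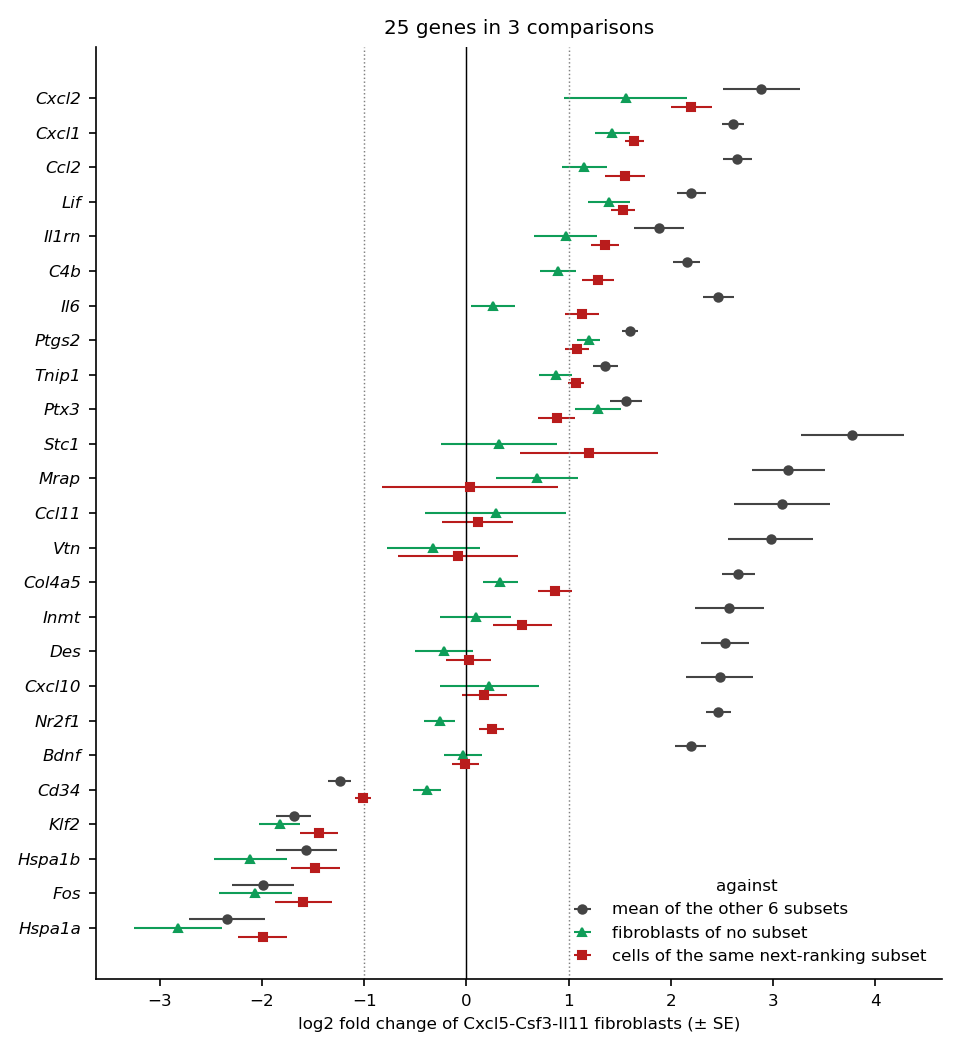
Log2 fold changes (± SE) of 25 genes in Cxcl5-Csf3-Il11 fibroblasts against the mean of the other 6 subsets, against fibroblasts of no subset and against cells of the same next-ranking subset, with dotted lines at -1 and 1. Cxcl1, Ccl2, Lif and Ptgs2 lie above 1 in all 3, Fos, Hspa1a and Klf2 lie below -1 in all 3, and Nr2f1, Des and Bdnf are above 1 only against the mean of the subsets.

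Il1rn, the interleukin-1 receptor antagonist, had 60.4 and 54.3 CPM in the members and 30.3 and 27.9 in fibroblasts of no subset. Its log2 fold change was 1.88 against the mean of the subsets and 1.35 ± 0.137 against cells of the same next subset, but 0.75 without the Pi16-Dpt-Clec3b pairs, where it did not pass. Tnip1, a brake on NF-kappaB that was singled out after its values were seen, had 98.0 and 82.2 CPM in the members and 52.4 and 45.8 in fibroblasts of no subset. Tnip1 had a log2 fold change of 1.07 ± 0.081 against cells of the same next subset. Tnfaip3, a deubiquitinase with the same role, had 44.0 and 47.4 CPM, above all other sums, and was called only against the mean of the subsets, at 1.52. Nfkbia, the NF-kappaB inhibitor, had log2 fold changes of 1.09, 0.59 and 0.73. Of 27 tested NF-kappaB genes, 8 were higher than the mean of the subsets, none was called higher by edgeR than in fibroblasts of no subset (13 at an unadjusted p under 0.05, 2 called by DESeq2) and 1, Tnip1, was higher than in cells of the same next subset. The median log2 fold changes of that list were 0.86, 0.35 and 0.34, against -0.006, -0.007 and -0.054 over all genes. C4b, a complement component also singled out after its values were seen, had 59.1 and 105 CPM in the members and 29.1 and 60.2 in fibroblasts of no subset, with a log2 fold change of 1.29 ± 0.154 against cells of the same next subset. A2m, a protease inhibitor, was called there at 1.07, higher in 8 of 10 pairs.

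Genes of several lists were called by edgeR against the mean of the subsets and not in the other comparisons, and the difference between comparisons was not tested. Of 19 interferon-induced genes 12 were higher there, with a median log2 fold change of 1.28, among them Isg15 at 1751 and 949 CPM in the members. Fibroblasts of no subset held 1542 and 832 CPM of Isg15, and none of the 19 was called higher by edgeR in the other comparisons, where 2 and 8 had an unadjusted p under 0.05. Ifi204 was lower than in cells of the same next subset. DESeq2 called 0 higher and 1 lower against fibroblasts of no subset. Of 34 growth factor and vessel genes 8 were higher and 1 lower there, and edgeR called none in the other comparisons, where 8 and 14 had an unadjusted p under 0.05 and DESeq2 called 0 against fibroblasts of no subset. Stc1, a secreted glycoprotein, had 47.0 and 67.7 CPM in the members and Esm1, an endocan, had 63.0 and 118. Both were above all sums of the other subsets, but Stc1 had 50.9 and 41.6 CPM in fibroblasts of no subset. These sums rest on few cells: Esm1 was detected in 6.26% and 8.93% of members and Stc1 in 6.26% and 8.16%. In each library 1 cell held 22.3% and 14.4% of the members' Esm1 UMIs, and 1 cell 14.7% and 12.4% of their Stc1 UMIs. Esm1 was higher in 7 of 10 pairs and Stc1 in 9 of 10. Bdnf, a neurotrophin, had 92.1 and 97.0 CPM against 106 and 88.6. Of 26 tested matrix protease genes 6 were higher than the mean of the subsets, with Adamts4 at 363 and 465 CPM in the members and 261 and 395 in fibroblasts of no subset. In the other comparisons edgeR called none of them, 7 and 10 had an unadjusted p under 0.05, and DESeq2 called 1 higher than in fibroblasts of no subset.

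Among colony-stimulating factors and related cytokines 2 of 8 tested genes were higher than the mean of the subsets, namely Kitl, a mast cell and melanocyte growth factor, at 427 and 599 CPM in the members, and Tslp, at 8.85 and 5.18. Fibroblasts of no subset held 429 and 618 CPM of Kitl. Of 19 genes of interleukin-1, TNF and Toll signalling 5 were higher there, among them the receptor Il1r1 at 276 and 346 CPM in the members. Of 16 oxidant response genes 1, the cystine transporter Slc7a11, was higher there, and of 21 hypoxia and glycolysis genes 1, the lactate transporter Slc16a3. Both counts are near the 4.46% called higher over all genes, and both genes overlapped the other subsets in each library. In the other comparisons edgeR called no gene of either list. There 5 and 6 oxidant response genes and 9 and 9 hypoxia and glycolysis genes had an unadjusted p under 0.05. Of 29 transcription factors of fibroblasts and the eye, Zeb2 and Ets1 were higher and Meox1 and Meox2 lower than the mean of the subsets. Levels of each of them overlapped those of the other subsets. In the other comparisons edgeR called none of the 29, while 11 and 16 had an unadjusted p under 0.05. Of 3 tested receptor genes edgeR called none, where 1, 0 and 1 had an unadjusted p under 0.05 and DESeq2 called 0.

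The transcription factor Nr2f1, the muscle intermediate filament gene Des and the vitronectin gene Vtn were among the genes with the largest differences from the mean of the subsets, at log2 fold changes of 2.47, 2.53 and 2.98. Against fibroblasts of no subset they stood at -0.26, -0.22 and -0.32, and against cells of the same next subset at 0.25, 0.02 and -0.085, with no call. Of the 66 genes named by rule, 50 higher and 16 lower, 15 were above all other subsets within each library, 6 were below all of them in each and 45 were neither. Taking the sums of both libraries together, 8 were above, 6 below and 52 overlapped. The rule picked these genes for being called, and the same share over all tested genes was not counted. These counts are therefore a description of the named genes only. Of 40 matrix genes tested, 4 were higher (Tnfaip6, Ptx3, Col7a1 and Has2) and 1, Sparc, was lower than the mean of the subsets by edgeR, and 27, 20 and 21 had an unadjusted p under 0.05 in the 3 comparisons. None of the 40 was called against cells of the same next subset. Tnfaip6 had 729 and 669 CPM in the members but up to 1856 and 1494 in another subset. Has2 had 56.1 and 56.9 CPM, against up to 85.2 and 91.6. Ptx3 and Col7a1 were above all other subsets within each library. Ptx3, a soluble pattern-recognition protein, had 407 and 406 CPM in the members and 129 and 203 in fibroblasts of no subset, where its log2 fold change of 1.29 was called. None of 21 contractile and TGF-beta response genes was called by edgeR in any of the 3 comparisons, where 11, 5 and 9 had an unadjusted p under 0.05 and DESeq2 called 0 and 1 in the first and the next. Penk, which encodes opioid peptides, and Fst, an activin antagonist, were called only against fibroblasts of no subset, at 1.26 and 1.06.

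Fos, Klf2, Hspa1a, Hspa1b and Txnip fell in all 3 comparisons. Fos had 260 and 347 CPM in the members, below all other fibroblast sums, with 1592 and 1033 in fibroblasts of no subset and 465 to 2979 in the other subsets. Its log2 fold change was -1.99 ± 0.307 against the mean of the subsets, -2.07 against fibroblasts of no subset and -1.59 ± 0.283 against cells of the same next subset, and it was lower in 9 of 10 pairs, the exception being the WT2 Crabp2-Ephb1-Nrk pair with 647 CPM in members and 467 in that subset. Hspa1a, an inducible chaperone, had 106 and 104 CPM, against 1102 and 503 in fibroblasts of no subset, and log2 fold changes of -2.34, -2.82 and -1.99. Hspa1b, which also passed in all 3, is near-identical, so reads may be shared between them. Klf2, a zinc-finger transcription factor, had 91.5 and 96.6 CPM, against 434 and 262, and was lower in 10 of 10 pairs. Txnip, an inhibitor of thioredoxin, had 27.6 and 44.9 CPM, against 139 and 133, and was also lower in 10 of 10 pairs. Of 32 immediate early genes edgeR called 2, Fos and Klf2, in all 3 comparisons, where 20, 18 and 18 had an unadjusted p under 0.05 and DESeq2 called 3 lower in the first and 3 in the next, and of 25 heat shock genes Hspa1a and Hspa1b were lower in all 3, while Ddit4 was higher against the mean of the subsets. Jun had 203 and 356 CPM, against 700 and 554 in fibroblasts of no subset, and was not called.

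Fos UMIs were concentrated in few cells. A Fos UMI was seen in 54.5% and 62.6% of members and in 56.1% and 60.6% of other fibroblasts, whereas after thinning to 2000 UMIs it was seen in 26.1% and 30.5% of members against 34.7% and 35.1% of other fibroblasts. The 10% of other fibroblasts with the most Fos held 84.9% and 84.1% of their Fos UMIs. By cytokine sum, the members with sums of 3 to 9, 10 to 19 and 20 or more held 356, 136 and 224 raw CPM of Fos in WT1 and 625, 349 and 219 in WT2. Other fibroblasts with sums of 0, of 1 or 2 and of 3 or more held 1628, 889 and 368 raw CPM in WT1 and 1209, 761 and 557 in WT2. Lif ran the other way, with 247, 326 and 469 raw CPM over the members' sums in WT1 and 247, 259 and 453 in WT2, and 115, 156 and 221 and 95.8, 128 and 159 in other fibroblasts. The median UMIs per cell of these bins ran from 5981 to 12829, and the part of depth in these levels was not tested.

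Of 25 general fibroblast genes tested, 4 were lower than the mean of the subsets by edgeR, with a median log2 fold change of -0.36. Against fibroblasts of no subset that median was 0.22, with 0 higher and 0 lower. Against cells of the same next subset it was -0.09, with 0 higher and 2 lower. In the 3 comparisons 18, 10 and 12 had an unadjusted p under 0.05, and DESeq2 called 0 against fibroblasts of no subset. The 4 lower genes included Cd34 at 30.0 and 35.5 CPM and Pcolce2, a procollagen enhancer, at 25.03 and 25.02. Both were also lower than in cells of the same next subset, but without the Pi16-Dpt-Clec3b pairs their log2 fold changes were -0.66 and -0.78 and were not called. Of 12 proliferation genes edgeR called none in any of the 3 comparisons, where 2, 2 and 1 had an unadjusted p under 0.05, and DESeq2 called 0.

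Cxcr2 had 0.196 and 0.931 raw CPM in the members, against 570 and 590 in S100a8-S100a9 myeloid cells, of which there were 14 in each library. Csf3r had 0.196 and 0.798 raw CPM in the members, against 13.7 and 17.6 in macrophages and 1611 and 1022 in S100a8-S100a9 myeloid cells. Il11ra1 had 356 and 275 raw CPM in the members and 550 and 395 in other fibroblasts, with 164 and 92.6 in melanocytes and 129 and 109 in RPE cells. Its log2 fold change against the mean of the subsets was -0.54, below the size of a call. Il6st had 183 and 275 raw CPM in the members and 162 and 255 in other fibroblasts, with 213 and 235 in melanocytes and 233 and 456 in Schwann cells.

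The members held 58.8% and 63.1% of all Cxcl5 UMIs in cells, 60.5% and 58.4% of Csf3 and 50.4% and 44.1% of Il11. The rule chose them by these UMIs, so these shares and the members' detection shares below follow from it. Other fibroblasts held 14.9% and 14.7% of Cxcl5, 22.7% and 25.3% of Csf3 and 29.3% and 37.2% of Il11. Cells outside the fibroblast gate and of no class held 12.0% and 10.5% of Cxcl5, 5.77% and 8.50% of Csf3 and 10.8% and 9.26% of Il11. Mural cells, the pericytes and smooth muscle of vessels, held Cxcl5 at 91.3 and 76.9 raw CPM and Il11 at 67.9 and 41.2. Endothelial cells held Csf3 at 127 and 62.5. After thinning to 2000 UMIs, a Cxcl5 UMI was seen in 30.7% and 30.9% of members, against 2.97% and 2.82% of other fibroblasts, 5.88% and 2.86% of mural cells, 0.213% and 0.319% of macrophages and 0.533% and 0.738% of melanocytes. Before thinning the shares were 35.2% and 38.3% of members, 1.57% and 0.911% of macrophages and 1.34% and 1.53% of melanocytes. Median depths were 7821 and 8136.5 UMIs in members, 8695.5 and 8274 in macrophages and 11373 and 9921 in melanocytes. Free RNA held Cxcl5 at 52.0 and 40.7 raw CPM, Csf3 at 135 and 112 and Il11 at 38.9 and 34.5, so endothelial Csf3 lay below the level in free RNA. In other fibroblasts Csf3, at 71.1 raw CPM in both libraries, and Cxcl5, at 24.1 and 20.3, also lay below free RNA. Their Il11, at 45.4 and 44.9, lay above it. The part of free RNA in the UMIs of other fibroblasts was not tested.

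**Figure D5:**
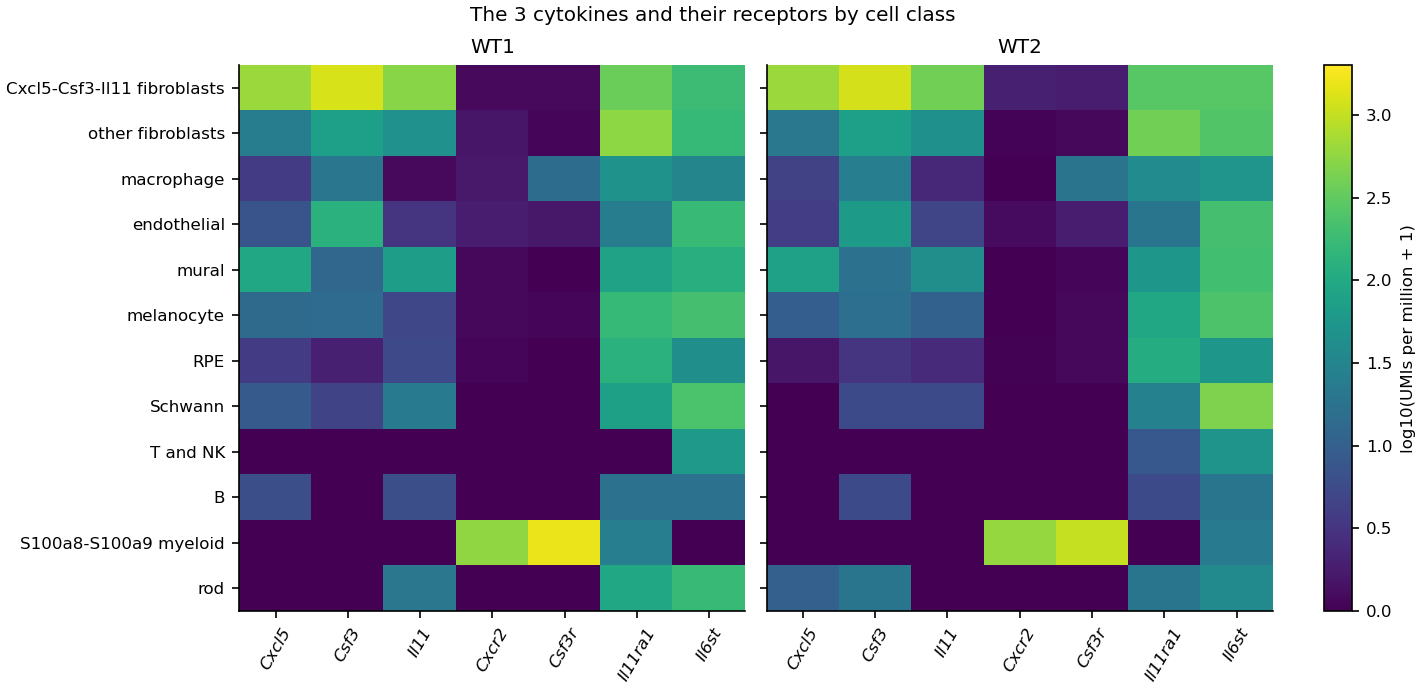
Levels of Cxcl5, Csf3, Il11 and 4 receptor genes, as log10 of raw CPM plus 1, in Cxcl5-Csf3-Il11 fibroblasts, other fibroblasts and 10 other cell classes of each library. The ligands are brightest in the top row, which follows from the rule. Cxcr2 and Csf3r are brightest in S100a8-S100a9 myeloid cells, and Il11ra1 in fibroblasts.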

How the data were processed

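Droplet 3′ single-cell libraries of choroid with RPE were deposited as raw UMI count matrices, which the authors made with Cell Ranger (version 4 per the file headers, 2.1.1 per the submitters' processing notes). Those notes name mm10 as the genome build. Which gene models served for counting was not given in the sources used here. Barcodes numbered 1959894 and 1856693, over 32285 genes, and were filtered as the report states. Scrublet (scanpy 1.11.5) marked doublets, which were kept. UMIs were summed per library and fibroblast group (16 sums) and tested with edgeR 4.0.16 (R 4.3.3) by quasi-likelihood, TMM normalisation, filterByExpr and the library as a block, because groups of a library share the same pooled mice. That origin pairs the sums, so no check of pairing from the data was needed. The matched comparison used 20 sums. The members, gene lists and tests were chosen with earlier results of these data known. Named genes were the 15 highest and 10 lowest called genes with at least 20 CPM and the same sign in each library, without gate, marker, mitochondrial and predicted genes, and up to 4 called genes of each of 20 lists. Thinning left out 2 and 0 members with under 2000 UMIs. Neighbours used 2000 variable genes and 30 components (scikit-learn 1.9.0). Alternatives were another scaling, DESeq2 1.42.0, no filter, no block, doublets removed, other thresholds, subtraction of free RNA and thinning. Promoters came from RefSeq (GRCm38.p6) and gene positions from GENCODE (GRCm38). Leaving out a library leaves no residual degrees of freedom, so those rows are values with no test. Some genes are not reported here.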

Additional observations from a re-analysis of the deposited data

How the results depend on the processing

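The share of fibroblasts that were members was 12.5% and moved to 11.3% with a subset minimum of 5 UMIs, and between 12.1% and 13.0% when either library was left out. Genes higher than the mean of the other subsets numbered 571, and 564 to 691 under other scaling, filters, doublet removal, thresholds, free RNA subtraction, thinning and DESeq2. Without the replicate block 429 were higher and 63 lower, against 133 lower with it, and thinning gave 203 lower. Against cells of the same next subset, an alternative chosen after the data were seen, 20 were higher and 95 lower, and without the Pi16-Dpt-Clec3b pairs 19 were higher and 40 lower. Against fibroblasts of no subset, 20 higher and 22 lower became 1 and 0 without the replicate block and 39 and 42 after thinning, and the count of lower genes became 48 with doublets removed, 13 with a minimum of 5 UMIs and 36 with 0 UMIs of the exclusion genes. The cause was not tested.

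Of the 66 named genes, 58 kept their call without the replicate block and 8 did not. Against cells of the same next subset 15 kept theirs, 46 lost it and 4 changed sign, namely Bdnf (log2 fold change -0.010), Il1a (-2.12), Il1r2 (-0.026) and Vtn (-0.085). Without the Pi16-Dpt-Clec3b pairs Il1a was at -1.45, Vtn at -0.17 and Ifit3 at -0.065. With doublets removed Il1a was at -0.16, and Cxcl13 ran from -1.16 to 2.79 when either library was left out, negative without WT2. Counts of calls could not be fitted with 1 library. Precision rests on 2 pools of mice, and genes of a few CPM rest on few UMIs.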
